A study of Mus musculus with 12 samples.

Results

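The 10 genes described here make, elongate and desaturate fatty acids in the cytosol and endoplasmic reticulum, or control that programme: *Srebf1*, *Acly*, *Acaca*, *Fasn*, *Elovl6*, *Scd1*, *Scd2*, *Elovl5*, *Fads1* and *Fads2*. They were chosen by name, and the set was picked because *Scd1* and *Fads2* were much lower in high-fat-diet libraries, so the differences between diets of its members are given as a description and were not tested. All 10 are among the 13232 genes of the table. The libraries come from bone marrow-derived macrophages, cells grown from whole marrow with 20 ng/ml of the growth factor M-CSF. The marrow donors were WT C57B6/J mice fed a normal diet (ND, 3 libraries) or a high-fat diet (HFD, 3 libraries). Every library used here had been moved to serum-free medium on day 4 and held at 1% oxygen for 1 h on day 7, so the 2 groups share the hypoxia and differ in the diet of the donor. Of the 12 samples that the labels describe, the 6 at normal oxygen were not analysed here. The labels used here do not give the sex or age of the mice, the composition or length of the diets, or whether each library is a separate mouse, so p-values measure only the spread between these libraries, which may be technical.

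Fatty acid synthesis starts from citrate, which the cell splits to acetyl-CoA, carboxylates to malonyl-CoA and condenses on a large multienzyme into palmitate. Elongases then add carbon units, and desaturases place double bonds: stearoyl-CoA desaturases make oleate and palmitoleate, while the delta-5 and delta-6 desaturases work on the essential polyunsaturated fatty acids. SREBP-1, the transcription factor encoded by *Srebf1*, and the oxysterol receptors LXR promote the transcription of most of these genes, and polyunsaturated fatty acids restrain them. In macrophages the pathway supplies membrane and signalling lipids, and its products feed back on inflammatory gene expression.

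Levels behave like read counts scaled per library and are called normalized levels below. The value of 1 read was estimated from the signal, from 0.908 in HFD replicate 3 to 1.18 in ND replicate 3. The estimated depth was lowest in ND replicate 3 (19046400 reads) and highest in HFD replicate 3 (24491500 reads). All 6 macrophage markers (*Adgre1*, *Csf1r*, *Cd68*, *Mertk*, *Lyz2*, *Itgam*) were present, with summed levels of 339043 to 389283 in ND and 337390 to 396536 in HFD. None of the 6 adipocyte markers, *Adipoq*, *Plin1*, *Lep*, *Cfd*, *Cidec* and *Retn*, was in the table, nor any of the B cell, erythroid or dendritic cell markers looked for. In the fit across all genes, limma array weights were lowest for ND replicate 3 (0.441) and HFD replicate 3 (0.556), and highest for ND replicate 1 (1.91) and HFD replicate 2 (3.09). No gene passed an adjusted p of 0.05 between diets (0% of 13232, limma with Benjamini-Hochberg adjustment), and 10.6% had an unadjusted p under 0.05. Without ND replicate 3, 233 genes passed.

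*Scd1* and *Fads2* were the members that separated the diets. In HFD their mean levels were 38.0% and 43.0% of those in ND, log2 differences of -1.37 and -1.21. Of all 13232 genes, *Scd1* had the 6th lowest and *Fads2* the 10th lowest difference. The remaining 8 members had log2 differences between -0.23 and 0.04, and the diets overlapped in each. The median over the 10 members was -0.15, against -0.0034 over all genes, and without *Scd1* and *Fads2* it was -0.088. All 3 HFD values lay below all 3 ND values for 2 of the 10 members, where the same held for 7.07% of all genes. A decrease of at least 1 on the log2 scale was likewise found for 2 members, and for 0.144% of all genes. Since the members were picked on this contrast, these shares are given side by side and nothing is read from them.

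**Figure D1:**
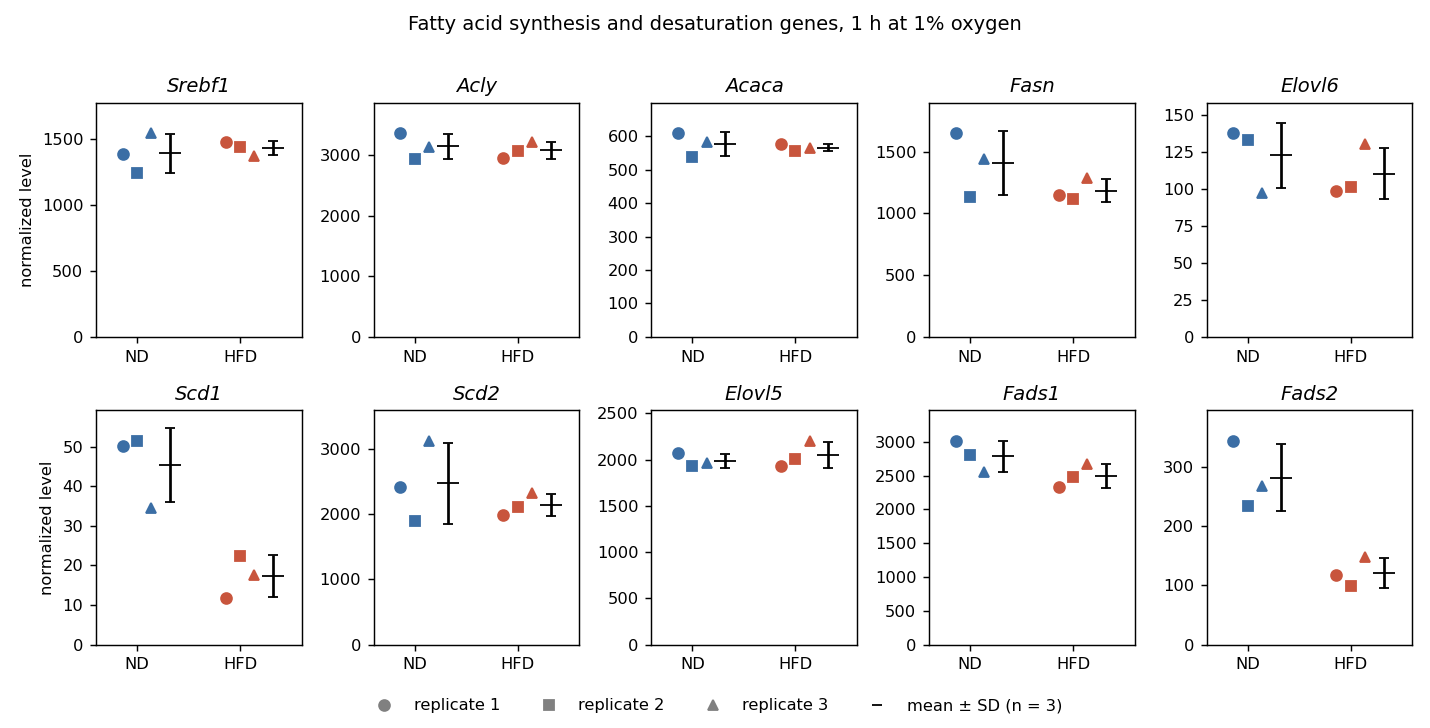
Normalized level (y axis, from 0) of each of the 10 genes in the 3 ND (blue) and 3 HFD (red) libraries. The marker shape gives the replicate, and the bar gives the mean ± SD (n = 3). *Scd1* and *Fads2* are the panels in which the red points all lie below the blue points.

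*Srebf1* encodes SREBP-1a and SREBP-1c, the factors that drive the enzymes of the pathway. In order of replicate, here and below, its normalized levels were 1385, 1240 and 1540 for ND, and for HFD 1475, 1435 and 1371. The highest and the lowest value were both from ND, and the means of 1388 ± 150 and 1427 ± 52.7 (SD, n = 3) differed by less than the SD in ND. *Srebf1* lies on chromosome 11 (chr11:60199089-60222581, minus strand, GRCm38) and overlaps *Rai1* on the other strand. A total of 35 of its 5857 windows of 75 bases, the read length, also occur in *Rai1*, which had levels of 862 ± 43.5 in ND and 922 ± 11.4 in HFD. The 2 SREBP-1 isoforms start at different promoters, and the table gives a single value for the gene, so the isoforms cannot be told apart.

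*Acly* (chr11:100476353-100528000, minus strand), the ATP citrate lyase that yields cytosolic acetyl-CoA, had levels of 3362, 2945 and 3131 in ND and 2956, 3064 and 3226 in HFD. The HFD values all fell within the ND range, and the log2 difference was -0.028. *Acaca* (chr11:84129672-84401651, plus strand) encodes acetyl-CoA carboxylase 1, which makes malonyl-CoA. It had 608, 537 and 582 in ND and 578, 556 and 563 in HFD, again with the HFD values inside the ND range (log2 difference -0.024). The level of *Acaca* is uncertain, because 26.8% of its 75-base windows also occur in transcripts of other genes, nearly all in the pseudogene *Gm5182*, which had a level of 483 ± 25.4 in ND and 476 ± 63.3 in HFD.

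*Fasn* (chr11:120805846-120824547, minus strand), the fatty acid synthase, had 1648, 1133 and 1442 in ND and 1148, 1117 and 1289 in HFD. ND replicates 1 and 3 lay above all HFD libraries, while ND replicate 2 lay between HFD replicates 1 and 2. The means were 1408 ± 259 and 1185 ± 92.1 (SD, n = 3), a log2 difference of -0.23, and the ND spread was larger than the difference. *Elovl6* (chr3:129532355-129638495, plus strand), the elongase that takes palmitate to stearate, was a low-level member with 138, 133 and 97.6 in ND and 99.0, 102 and 130 in HFD. ND replicate 3 sat with HFD replicates 1 and 2, and HFD replicate 3 sat with the other ND libraries, so the diets were interleaved (log2 difference -0.15). None of these enzymes of saturated fatty acid synthesis separated the diets.

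*Scd1* and *Scd2* both encode stearoyl-CoA desaturases, which introduce the double bond of oleate and palmitoleate. The 2 genes lie 114 kb apart, start to start, on chromosome 19, *Scd1* at chr19:44394455-44407879 on the minus strand and *Scd2* at chr19:44293674-44306864 on the plus strand. *Scd1* had normalized levels of 50.2, 51.4 and 34.6 in ND and 11.8, 22.4 and 17.5 in HFD. The highest HFD library, replicate 2, was below the lowest ND library, replicate 3, and the means were 45.4 ± 9.40 and 17.3 ± 5.32 (SD, n = 3). *Scd2* had 2410, 1886 and 3118 in ND and 1985, 2107 and 2315 in HFD. ND held both the highest and the lowest *Scd2* level. Dropping the higher of these, ND replicate 3, took the log2 difference from -0.18 to -0.00042. Dropping the lower, ND replicate 2, instead took it to -0.36. *Scd2* was thus not lower beyond the spread between ND libraries (2472 ± 618 against 2136 ± 167).

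*Scd1* was a rare transcript here, with 12.1 to 52.6 estimated reads per library, and counting alone gives an error of 13.8% to 28.8%. In none of the 6 libraries was its value a whole number of reads (within 0.02 of a read). The coding sequences of *Scd1* and *Scd2* are identical at 89.6% of aligned positions and share a stretch of 147 identical bases. That stretch is shown with 12 bases on each side, from the GENCODE M21 coding sequences (GRCm38, positions 511 to 681 of *Scd1* and 520 to 690 of *Scd2*, counted from the A of the start codon). It is shown because a read of 75 bases inside it fits both genes. Capitals mark the 2 bases that differ.
Scd1: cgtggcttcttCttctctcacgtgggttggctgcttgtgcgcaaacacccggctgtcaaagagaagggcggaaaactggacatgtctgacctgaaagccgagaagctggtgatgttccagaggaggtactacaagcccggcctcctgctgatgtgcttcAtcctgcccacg
Scd2: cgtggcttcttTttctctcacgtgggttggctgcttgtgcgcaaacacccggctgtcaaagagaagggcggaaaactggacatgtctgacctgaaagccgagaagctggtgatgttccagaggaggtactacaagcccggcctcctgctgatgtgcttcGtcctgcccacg
In all, 79 of the 5461 windows of 75 bases in *Scd2* transcripts also occur in *Scd1*. If *Scd2* reads were spread evenly, 34.9, 27.9 and 38.2 reads in ND and 29.3, 31.6 and 36.9 in HFD would fall in those windows. *Scd1* itself had an estimated 50.3, 52.6 and 29.3 reads in ND and 12.1, 23.3 and 19.3 in HFD. Of the reads of *Scd1* itself, 0.195 to 0.850 per library would fall there on the same assumption. The number of reads that fit both genes was thus of the size of the whole *Scd1* value, and it did not separate the diets. How the authors' counting divided these reads is not given in the sources used here, so the level of *Scd1* and the size of its fold change are uncertain. Of the 4888 windows of *Scd1* itself, 154 (3.15%) occur in any other gene, 111 of them in *Scd3*, which is not in the table, and some in more than 1 gene.

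*Elovl5* and *Fads1* act on polyunsaturated fatty acids, *Elovl5* as an elongase and *Fads1* as the delta-5 desaturase that makes arachidonate. *Elovl5* (chr9:77917364-77984519, plus strand) had 2074, 1930 and 1960 in ND and 1931, 2010 and 2201 in HFD, with overlapping diets and a log2 difference of 0.04. *Fads1* had 3012, 2799 and 2555 in ND and 2327, 2485 and 2673 in HFD. Its ND replicate 3 lay below HFD replicate 3, so the diets overlapped, and the log2 difference was -0.16 (2789 ± 229 against 2495 ± 173, SD, n = 3). Neither *Elovl5* nor *Fads1* shares a 75-base window with another gene.

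*Fads2* is the delta-6 desaturase, the first step from linoleate and alpha-linolenate towards the long polyunsaturated fatty acids. It lies at chr19:10062765-10101746 on the minus strand, with its start 81.1 kb from that of *Fads1* (chr19:10182888-10196877, plus strand). Normalized levels of *Fads2* were 344, 234 and 268 in ND and 117, 98.4 and 148 in HFD. All 3 HFD libraries were below the lowest ND library, and the means were 282 ± 56.6 and 121 ± 25.0 (SD, n = 3), 2.32 times higher in ND. Its values were whole reads in all 6 libraries (within 0.02 of a read): 345, 239 and 227 reads in ND and 120, 102 and 163 in HFD. No 75-base window of *Fads2* occurs in another gene, and counting error was 5.38% to 9.90%. Without 1 library, the log2 difference of *Fads2* ran from -1.36 to -1.06, and that of *Scd1* from -1.57 to -1.13.

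**Figure D2:**
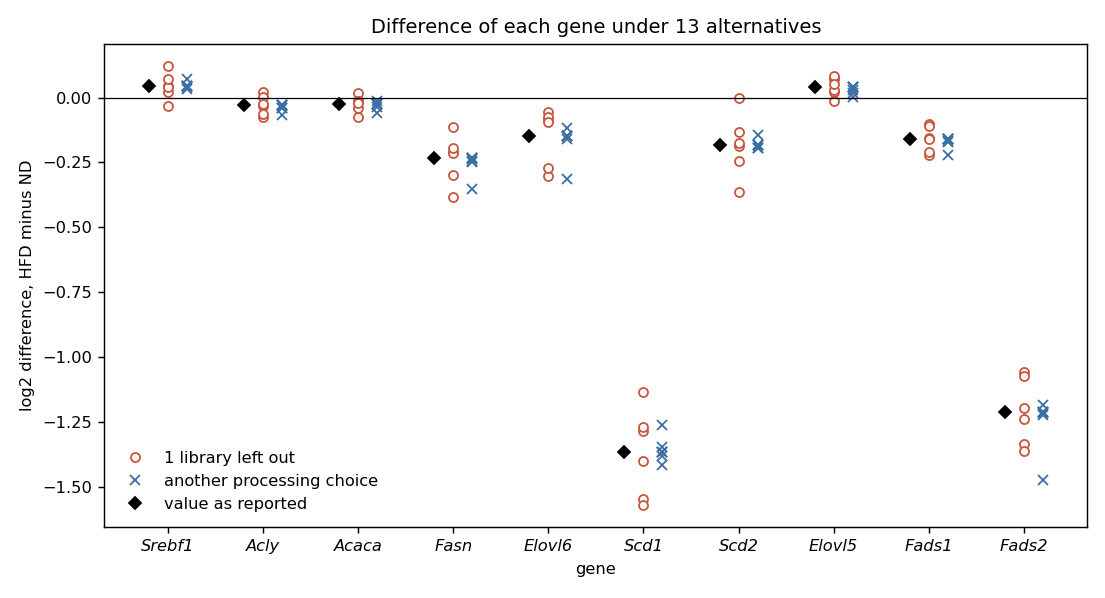
Log2 difference (HFD minus ND, y axis) of each of the 10 genes as reported (black diamond), with each of the 6 libraries left out in turn (red circles), and under the other processing choices (blue crosses). *Scd1* and *Fads2* stay between -1.57 and -1.06 and the other 8 genes between -0.38 and 0.12.

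The ratio between related enzymes follows from these values. Levels of different genes were compared per kilobase of annotated exon. *Scd2* was 43.0, 32.8 and 80.8 times as high as *Scd1* in ND and 150, 84.1 and 118 times as high in HFD. *Fads1* was 5.99, 8.20 and 6.53 times as high as *Fads2* in ND and 13.6, 17.3 and 12.4 times as high in HFD. For the elongases, *Elovl5* was 27.5, 26.5 and 36.7 times as high as *Elovl6* in ND and 35.6, 36.1 and 30.9 times as high in HFD. The HFD ratios lay above all ND ratios for the desaturase pairs and overlapped for the elongase pair. The desaturase ratios restate the differences of *Scd1* and *Fads2*, for which the set was picked, so nothing is read from the contrast with the elongases. Ratios to *Scd1* also carry the uncertainty of its level. In each desaturase pair the less abundant gene was *Scd1* or *Fads2*, whose large difference was the reason the set was picked. A link between level and difference was not tested.

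Across all 6 libraries the mean normalized level per kilobase was highest for *Acly* (590 ± 30.6), *Elovl5* (573 ± 29.9) and *Fads1* (549 ± 50.4, SD, n = 6), and these neighbours overlapped. With the longest coding transcript as the length, *Fads1* came first, ahead of *Elovl5* and then *Acly*, while the order of the other 7 genes was the same. *Scd2* followed at 422 ± 81.4 per kilobase, overlapping *Fads1*. *Srebf1* at 250 ± 18.3 lay below every *Scd2* value and above every *Fasn* value. *Fasn* had 118 ± 19.4 and *Fads2* 61.2 ± 29.2, with overlapping ranges. *Fads2* and *Acaca* (33.4 ± 1.44) also overlapped, because *Fads2* fell below *Acaca* in HFD replicate 2. *Elovl6* (18.1 ± 2.94) and *Scd1* (6.40 ± 3.45) were lowest, each clear of its neighbours. *Scd1* was at the 1.14th percentile and *Fads2* at the 30.8th percentile of per-kilobase levels in the table. *Acaca* and *Elovl6* were below *Fads2* per kilobase and overlapped between diets. Before division by length the mean normalized level was 571 for *Acaca*, above the 202 of *Fads2*, and 117 for *Elovl6*.

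**Figure D3:**
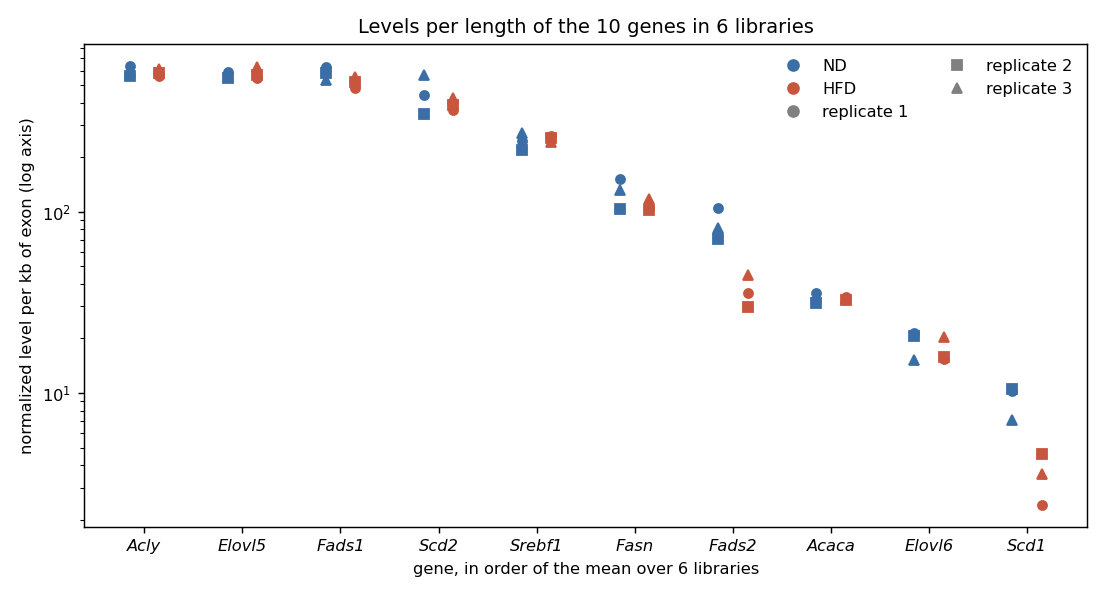
Normalized level per kb of exon (log axis) of the 10 genes in the 6 libraries, ordered by the mean. Blue is ND and red is HFD, and the marker shape gives the replicate. *Acly*, *Elovl5*, *Fads1* and *Scd2* form the upper group, and *Scd1* is the lowest gene.

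Promoter sequence was available from RefSeq (GRCm38.p6) for 7 of the 10 members, in 9 windows of 300 bases running from 250 before to 50 after a start site. *Scd1*, *Scd2* and *Fads1* had no entry. The *Acaca* window (chr11:84195188-84195487) lies inside the annotated gene, as some *Srebf1* windows do. The windows were searched on both strands for the sterol regulatory element TCACNCCAC, the CCAAT box CCAAT bound by NF-Y, a usual partner of SREBP, and the E-box CACGTG. These motifs occur in 1.24%, 37.4% and 7.15% of the 32851 promoter windows in the RefSeq table. An exact match to TCACNCCAC was in none of the 9 windows, and other forms of the element were not searched for. CCAAT was in 5 of them (*Elovl5*, *Fasn*, *Acly* and 2 windows of *Srebf1*), and CACGTG in the *Elovl5* window alone. The windows of *Fads2*, a member with no shared window that differed between diets, and of *Fasn*, a target of the same factors that overlapped between diets, are printed 5′ to 3′ on the gene's strand so that their letters can be compared. Capitals mark CCAAT on either strand. There are 3 in *Fasn*, at -90, -62 and -59 from the start site, the last 2 overlapping, and there are 0 in *Fads2*.
Fads2 (chr19:10101454-10101753, minus strand): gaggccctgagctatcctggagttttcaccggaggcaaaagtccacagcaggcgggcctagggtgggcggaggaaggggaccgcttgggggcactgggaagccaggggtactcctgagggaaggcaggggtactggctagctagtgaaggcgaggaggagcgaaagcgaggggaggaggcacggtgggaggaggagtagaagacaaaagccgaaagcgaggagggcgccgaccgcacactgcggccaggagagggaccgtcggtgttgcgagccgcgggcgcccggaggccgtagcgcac
Fasn (chr11:120824498-120824797, minus strand): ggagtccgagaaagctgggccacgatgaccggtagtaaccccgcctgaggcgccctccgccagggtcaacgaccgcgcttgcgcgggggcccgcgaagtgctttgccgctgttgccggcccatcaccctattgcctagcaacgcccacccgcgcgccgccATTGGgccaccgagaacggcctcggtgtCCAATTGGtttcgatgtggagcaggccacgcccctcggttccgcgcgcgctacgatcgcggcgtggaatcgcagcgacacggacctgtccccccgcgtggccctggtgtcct
A match in such a window is a description of its letters, and the absence of a match says nothing about binding.

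The genes around the pathway were taken from 9 lists chosen by role, with 81 of their 95 genes in the table, and no member among them. None of the 81 passed an adjusted p of 0.05 (limma with Benjamini-Hochberg adjustment over all 13232 genes). At an unadjusted p under 0.05 (limma) there were 27, 16 lower and 11 higher in HFD, and 12 of the 16 were sterol synthesis or uptake genes. Of all 13232 genes, 10.6% had an unadjusted p under 0.05. The median log2 difference of all 81 was 0.016. Without ND replicate 3, 10 of the 81 passed, 5 in each direction, where 233 of all 13232 genes passed. Among the 10, *Idi1*, *Insig1*, *Sc5d* and *Stard4* were lower and *Abcg1*, *Agpat3*, *Cd36*, *Pgd* and *Plin2* higher. As background for the overlap of diets given by list below, the HFD values lay above all ND values for 7.44% of all genes and below them for 7.07%.

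**Figure D4:**
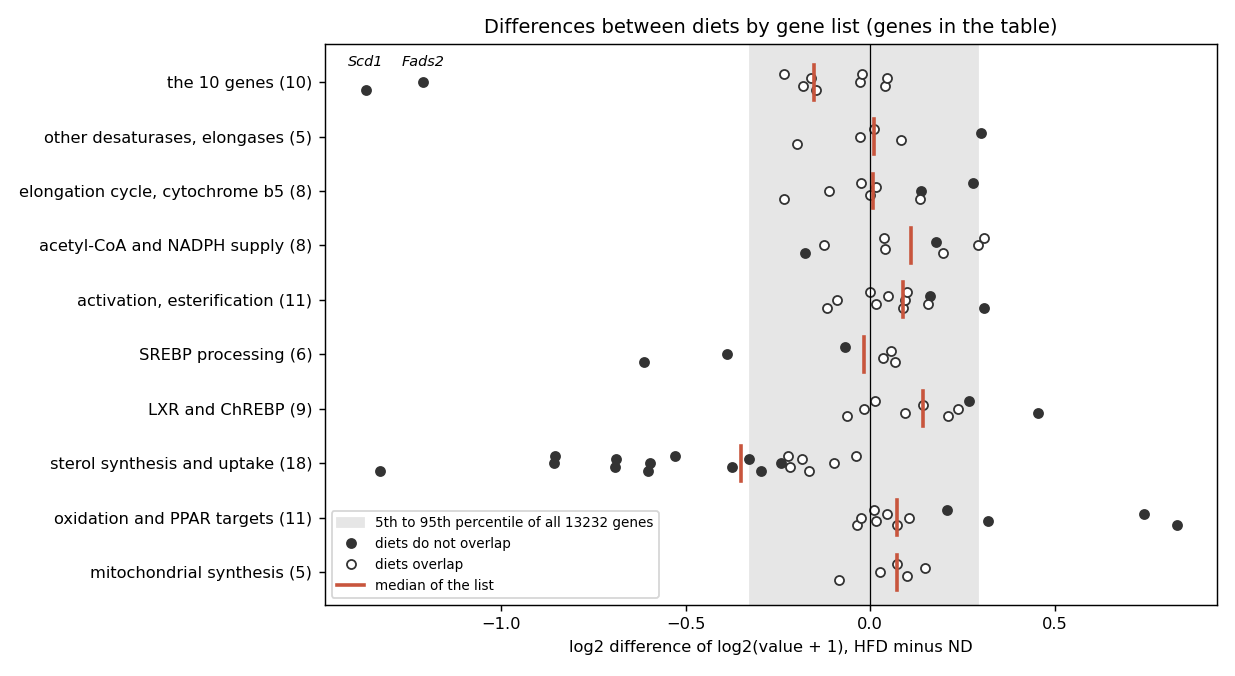
Log2 difference of log2(value + 1), HFD minus ND (x axis), of each gene in the table from the 10 members and 9 lists around them (rows, with the number of genes). Filled points are genes whose diets do not overlap, open points overlap, red lines are list medians, and the grey band holds the 5th to 95th percentile of all 13232 genes. *Scd1* and *Fads2* lie far left of the other members, and the sterol list is the row that lies wholly left of 0.

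SREBP precursors are held in the endoplasmic reticulum by INSIG proteins and escorted by SCAP to the proteases that release them. All 6 genes of this list were in the table, and the median log2 difference was -0.018. *Insig1*, itself an SREBP target, had 1519, 1123 and 1079 in ND and 853, 774 and 780 in HFD. Its HFD values were all below its ND values, with a log2 difference of -0.61 (limma SE 0.12, adjusted p 0.184, range over the alternatives 0.0063 to 0.860). *Srebf2*, which encodes the sterol-regulating SREBP-2, had 3440, 2574 and 2770 in ND and 2313, 2131 and 2219 in HFD (log2 difference -0.39, limma adjusted p 0.275, range 0.0127 to 0.879). The *Srebf1* values given above overlapped between diets, and the difference between the 2 *Srebf* genes was not tested.

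Sterol synthesis and uptake genes, the targets of SREBP-2, were all in the table. The log2 difference was below 0 for 18 of 18, with a median of -0.35, and for 12 the diets did not overlap. The shares over all genes were 7.07% below without overlap and 10.6% at an unadjusted p, which 12 of the 18 reached. None passed the adjusted threshold in limma. With array weights 11 of the 18 passed, where 1133 of all 13232 genes did. Without ND replicate 3, 4 of the 18 passed, where 233 of all 13232 genes did. *Fdps*, which makes farnesyl diphosphate, had 260, 159 and 137 in ND against 93.1, 89.2 and 113 in HFD, with no overlap (log2 difference -0.86, limma adjusted p 0.275, range 0.00941 to 0.879).

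Among LXR and ChREBP inputs, 9 of 10 genes were in the table, *Mlxipl* being the missing one, and 7 had a difference above 0 (median 0.14). *Nr1h3*, which encodes LXR alpha, had 246, 299 and 312 in ND and 392, 407 and 371 in HFD. The diets did not overlap (log2 difference 0.45, limma adjusted p 0.239, range 0.00913 to 0.879). *Abcg1*, a cholesterol efflux pump and LXR target, was 11770 ± 856 and 14158 ± 425 (log2 difference 0.27, limma adjusted p 0.278, range 0.00995 to 0.882). *Nr1h3* and *Abcg1* thus had a difference of the opposite sign from *Scd1* and *Fads2*.

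Of 11 other desaturases and elongases 5 were in the table, with log2 differences from -0.20 to 0.30 and a median of 0.011, and *Scd3*, *Scd4*, *Elovl2*, *Elovl3*, *Elovl4* and *Elovl7* were not. The highest, *Degs2*, a sphingolipid desaturase named here after its values were seen, was the 1 gene of the 5 whose HFD values all lay above its ND values (limma adjusted p 0.513). *Fads3*, a neighbour of *Fads2* on chromosome 19, was 137 ± 31.1 in ND and 117 ± 9.78 in HFD (limma adjusted p 0.721), and *Elovl1*, an elongase of very long saturated chains, 1185 ± 45.1 and 1259 ± 142 (limma adjusted p 0.789). Of the elongation cycle and the electron carriers of the desaturases 8 of 9 were in the table (median 0.0083). *Cyb5a*, the cytochrome b5 that feeds electrons to the desaturases, had 2504, 2802 and 2958 in ND and 3112, 3573 and 3340 in HFD, with no overlap (log2 difference 0.28, limma adjusted p 0.286, range 0.012 to 0.886). *Hacd4*, a dehydratase family member, was 5827 ± 770 and 4936 ± 474 with overlapping values (log2 difference -0.23, limma adjusted p 0.470, range 0.0354 to 0.956).

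Supply of acetyl-CoA and NADPH had 8 of 10 genes in the table, 6 of them above 0 (median 0.11). *Me1*, the malic enzyme, was 177 ± 51.4 in ND and 215 ± 27.0 in HFD (limma adjusted p 0.610), and *Pgd*, of the pentose phosphate pathway, 12350 ± 1515 and 15081 ± 999 (limma adjusted p 0.321, range 0.0124 to 0.932), both with overlapping diets. For activation and esterification of fatty acids 11 of 13 genes were in the table, 9 above 0 (median 0.089). *Agpat3*, an acyltransferase of phospholipid synthesis, was 1702 ± 170 and 2101 ± 66.6 (log2 difference 0.31, limma adjusted p 0.270, range 0.00848 to 0.879), and *Acsl5*, an acyl-CoA synthetase, 1624 ± 53.3 and 1819 ± 93.8 (log2 difference 0.16, limma adjusted p 0.415, range 0.0452 to 0.934). For both the diets did not overlap.

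Fatty acid oxidation and PPAR targets had 11 of 12 genes in the table, 9 above 0 (median 0.073). The leading genes were *Angptl4*, a secreted lipase inhibitor induced by fatty acids, with 117 ± 23.3 in ND and 207 ± 36.7 in HFD (log2 difference 0.83, limma adjusted p 0.210, range 0.0068 to 0.860), and *Cd36*, a fatty acid transporter, with 51245 ± 12259 and 84510 ± 11029 (0.74, limma adjusted p 0.217, range 0.0063 to 0.860). Mitochondrial fatty acid synthesis, a separate pathway, had 5 of 6 genes in the table and a median of 0.073. Its leading genes *Mecr* (limma adjusted p 0.692) and *Ndufab1* (0.736) overlapped between diets.

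Genes most like *Scd1* and *Fads2* in pattern were found by the root-mean-square difference of log2 values centred on each gene's mean, over the 6 libraries and 10785 genes with a mean of at least 100. *Fads2* itself lay 0.42 from *Scd1*, the nearest of the other 9 members. Outside the members, the 4 nearest to *Scd1* were *Atp2a3*, a calcium pump of the endoplasmic reticulum (0.41), *Fdps* (0.43), *Rps12-ps4*, a ribosomal protein pseudogene with uncertain counts (0.44), and *Kit*, the stem cell factor receptor (0.44). The near neighbours of *Fads2* included *C030034L19Rik* (0.25), *Kit* (0.25) and the chemokine *Ccl4* (0.25), all closer to it than *Scd1* was. The 6 libraries and their scaling are common to all these genes, and no test was made.

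**Figure D5:**
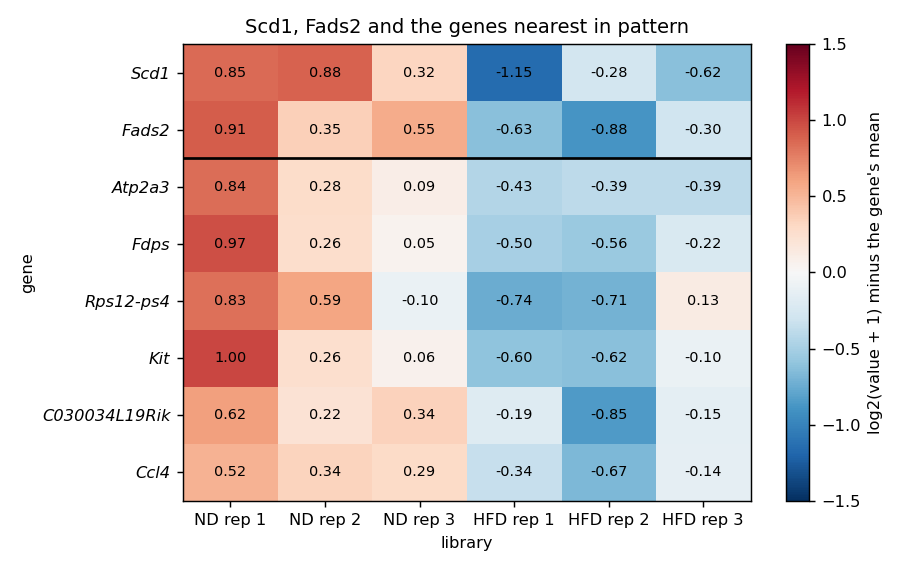
Log2(value + 1) minus the gene's mean over 6 libraries (colour and printed value) for *Scd1*, *Fads2* and, below the line, 6 genes among the nearest to either in pattern. Columns are libraries. *Scd1* is lowest in HFD replicate 1 and *Fads2* in HFD replicate 2, and *Fads2* and the 6 genes below the line all peak in ND replicate 1.

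Fewer cells of another type and less RNA per cell cannot be told apart in these bulk libraries. Stromal markers, like *Scd1* and *Fads2*, had lower mean levels in HFD. Of 6 stromal markers 3 were in the table (*Col1a1*, *Col1a2* and *Col3a1*), while *Dcn*, *Lum* and *Pdgfra* were not, and the summed level was 308, 549 and 177 in ND and 125, 337 and 51.8 in HFD. The diets overlapped in that sum: HFD replicate 2 lay above ND replicates 1 and 3. In *Scd1* and *Fads2*, for which the set was picked, the diets did not overlap. Within ND, *Scd1* ranked the replicates as the stromal sum did (51.4, 50.2 and 34.6 in replicates 2, 1 and 3). ND replicates 2 and 1 had 52.6 and 50.3 estimated *Scd1* reads, closer than the counting error of at least 13.8%, so their order is uncertain. For *Scd1* and for the stromal sum, HFD replicate 2 was the highest HFD library, while HFD replicates 1 and 3 were in opposite order. *Fads2* was lowest in replicate 2 of each diet, where the stromal sum was highest. Of 8 neutrophil markers 4 were in the table, with summed levels of 1156 to 1763 in ND and 1149 to 2148 in HFD, and *Ly6g*, *Camp*, *Elane* and *Mpo* were not. Of 5 T cell markers only *Cd4*, which macrophages can also express, was in the table, at 202 to 356 in ND and 98.1 to 230 in HFD. Beyond these values, the part of other cells in the differences of *Scd1* and *Fads2* was not tested.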

How the data were processed

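RNA libraries of 6 macrophage cultures were analysed. Per the labels' protocols, stranded total RNA libraries were made from 100 ng of RNA after removal of ribosomal RNA and read as single reads of 75 bases. STAR, Partek and the build mm10 are named in the submitters' processing notes, with no role. The counting tool, its annotation, strand setting and filters are not given in the sources used here. The deposited signal behaves like gene counts scaled by a factor for each library. In each library 57.0% to 58.4% of the signal values from 5 to 1000 are multiples of the value of 1 read, to within 0.02 of a read. The rest are fractions, so no count test was run. NC in a column's name was read as normal diet, and the number there as the replicate.

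Diets were compared per gene on log2(value + 1) in R 4.3.3 by the two-sided moderated test of limma 3.58.1, with a mean-variance trend and with Benjamini-Hochberg adjustment over all 13232 genes and a threshold of 0.05. No filter on low values was used. Standard errors (SE) are those of limma. Adding 1 makes changes of low genes look smaller. The procedure was tested on simulated data. Exon lengths (union of annotated exons), 75-base windows and coding sequences came from GENCODE M21 (GRCm38, the assembly of mm10), which matched 12964 symbols. Windows were compared on both strands with all its transcripts, and counting error is the inverse square root of the estimated reads, which covers counting only.

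Named genes are the members, the 2 genes of each list with the largest absolute difference among those with a mean of at least 100, and the 4 genes nearest in pattern to *Scd1* and to *Fads2*. A gene that this rule takes in is not reported here by name. Genes that passed without ND replicate 3 were named after their values were seen. The members and lists were chosen with earlier results of these data known. Alternatives were array weights, a replicate block, no mean-variance trend, each library left out, quantile normalization, equal column totals, a pseudocount of 0.1, and only genes with at least 10 in all libraries. The length of the longest coding transcript was added after seeing the data.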

Additional observations from a re-analysis of the deposited data

How the results depend on the processing

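All 130 values of the 10 members under the 13 alternatives lay within 1 SD of those reported. For many of them this was fixed in advance. The no-trend, replicate-block and minimum-level settings leave the members' differences unchanged, and leaving out 1 library cannot move them beyond 1 SD. *Scd1* and *Fads2* kept their direction in all 26, and 5 values of *Acaca*, *Acly*, *Elovl5* and *Srebf1*, all near 0, turned sign. The count of members with all HFD values below all ND values was 2, and ran from 2 to 5 without 1 library: 5 without ND replicate 2 (*Scd2*, *Fasn* and *Acaca* joined *Scd1* and *Fads2*), 4 without ND replicate 3 (*Fads1* and *Elovl6* joined) and 3 without HFD replicate 3 (*Fads1* joined). Fewer samples make such a separation easier, and the share of all genes that separate so without 1 library is not given here. The 7.07% of all genes given above is for all 6 libraries, so nothing is read from the higher counts. Their median, -0.15 with all libraries, lay between -0.23 and -0.080 when 1 was left out.

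Array weights gave 1133 genes past the adjusted threshold in place of 0, and 27 of the 81 pathway genes in place of 0, 15 lower and 12 higher. With 1 library left out, 0 to 233 genes passed, and 0 to 10 pathway genes, the highest both without ND replicate 3. The cause was not tested. The replicate block gave 31 genes and 2 pathway genes (*Cd36* and *Insig1*). Libraries that share a number had residual correlations of -0.0086, -0.037 and -0.00069, so they were not treated as pairs. Other settings gave 0 pathway genes. Of 286 values of the 22 other named genes, 260 stayed on the same side of the threshold with the same sign, 26 passed it only in the alternative, and 0 reversed. These genes were named for the largest differences of their lists or for likeness to *Scd1* or *Fads2*. The no-trend, replicate-block and minimum-level settings leave their differences unchanged too, so nothing is read from the kept signs. Depth limits *Scd1* most, at 12.1 to 52.6 reads.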
